A study of Homo sapiens with 9 samples.

Results

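The genes described here encode 9 proteins of the cytoplasmic mRNA decapping machinery and of processing bodies (P-bodies): DDX6, LSM14A, PATL1, EDC3, EDC4, DCP1A, DCP2, XRN1 and EIF4ENIF1. They were chosen by name, because the RNA-binding protein (RBP) FAM120A was known from these same libraries to bind the DDX6 transcript densely in K562 cells. They are 9 of 21986 annotated genes that held at least 1 merged peak in any library, and they carried 3132 of the 2478204 merged peaks of the series. The question addressed was whether the FAM120A binding of DDX6 extends to the transcripts of its protein partners. DDX6 values from K562 cells chose the list and are given as a description.

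P-bodies are cytoplasmic granules that gather translationally repressed mRNAs with the enzymes that remove the cap and degrade the transcript from the 5′ end. The helicase DDX6 is a central scaffold that contacts LSM14A, PATL1, EDC3 and EIF4ENIF1 (also called 4E-T), while DCP2 cuts the cap with the help of its cofactors DCP1A, EDC3 and EDC4, and XRN1 then digests the exposed RNA. FAM120A is a cytoplasmic RBP that binds mainly 3′ untranslated regions (3′ UTRs).

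The libraries were made by antibody-barcode eCLIP (ABC), in which each antibody carries a DNA oligonucleotide that is ligated to the RNA crosslinked to its RBP, so that several RBPs are read from 1 pool. A pool held barcoded antibodies to 10 RBPs, namely DDX3, EIF3G, FAM120A, IGF2BP2, LIN28B, PRPF8, PUM2, RBFOX2, SF3B4 and ZC3H11A. There were 3 pools from K562, an erythroleukaemia line, and 2 from HEK293T (HEK293XT in the study's methods), an embryonic kidney line, which together gave 50 of the 54 libraries. The remaining libraries were single-antibody experiments for RBFOX2 in HEK293T and SLBP in K562, with 2 replicates each. No cells carried a treatment or an engineered allele in the labels, and each line is 1 established culture, so replicates measure the spread between these pools, which may be technical.

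The labels disagreed on the lines. Both HEK293T pools carried K562 in the cell line field, both were titled rep1, and the K562 replicate 3 pool was entered as K563. Groups followed the titles, and HEK293T replicates were numbered in accession order. Erythroid marker genes (10 genes, in reads per 1000000 peak reads of the library, RPM, summed) reached 1530 to 7730 in the libraries of K562 pools and 0 to 63.4 in those of HEK293T pools. The 8 HEK293T markers were weak in both, at 0 to 1350 and 0 to 965, with peaks at 0 to 2 of them per library in K562 pools and at 0 to 8 in HEK293T pools. Peak reads per library ranged from 13351 to 3694500, and those of FAM120A from 823520 to 3694500. Because only reads within called peaks were seen, a library with no peak at a gene stood at 0, and 3 reads corresponded to 1.29 to 3.64 RPM in the K562 FAM120A libraries but to 154 to 225 RPM in the PUM2 libraries.

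Each peak was compared with the complement control (CC), the reads of the 9 other RBPs of the same pool in the same window. A peak was called enriched at P below 0.001 and a fold above 8 over the CC, that is, above 3 on the log2 scale. The windows at which enriched FAM120A peaks recurred are shown first, because they are the sites on which the comparison between DDX6 and its partners turned. All lie in 3′ UTRs, in GRCh38, and are written 5′ to 3′ on the gene's strand. The DDX6, DCP2 and DCP1A windows are centred on the bases of highest mean fold, and their capitals mark bases within enriched peaks of all 3 K562 replicates. For DDX6, 3 windows are given, taken in order of mean fold with starts of sites more than 100 bases apart, so that bases of higher fold beside an earlier window were passed over. In the other windows capitals mark bases within enriched peaks of every pool named.
DDX6 site 1, chr11:118748890-118748919, minus strand: CAGTATTTGTTTTCAGAATGAGATGGGAGC
DDX6 site 2, chr11:118748715-118748744, minus strand: taggggtgggagggAGGGTACTTTGCCCCA
DDX6 site 3, chr11:118750949-118750978, minus strand: GTTTTACGCAACACTAaattctagaaagta
DCP2, chr5:113016248-113016277, plus strand: TTTCAAATAGTGATACCCTCCTGAGACATG
DCP1A, chr3:53286937-53286966, minus strand: CCAGTCCTGCCCTGCAGCAGGCCCCCAGTG
LSM14A (4 pools), chr19:34228767-34228796, plus strand: ATTCAGTAGTGATAAAGATATAGAAACTGC
PATL1 (3 pools), chr11:59637718-59637747, minus strand: ATAAATAAAGAGTATGCAGCACGTTTAATA
XRN1 (both HEK293T pools), chr3:142309148-142309177, minus strand: ACTGAGAAGAGATTAAGATAGGAGAGAGCT

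FAM120A was enriched at DDX6 in every pool and, at lower density, at DCP2 and DCP1A in every pool, whereas EDC3 and EDC4 had no enriched FAM120A peak in any. The 3′ UTRs of EDC3 and EDC4 have 2054 and 351 nt. LSM14A and PATL1 each had enriched peaks in 4 of 5 pools, XRN1 in both HEK293T pools alone, and EIF4ENIF1 in 1 HEK293T pool. Of the 650 FAM120A merged peaks at the 9 genes, 293 were enriched, 291 of them in 3′ UTRs and 2 in coding sequence. DDX6 held 201 of the 293.

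At DDX6 the K562 replicates gave 41, 52 and 41 enriched peaks and the HEK293T replicates 32 and 35. Many touched each other, and merging neighbours left 13, 17 and 18 separate runs in K562 and 15 and 14 in HEK293T. All lay in the 3′ UTR (4342 nt), between nucleotides 793 and 4160 after the stop codon in K562. They covered 22.6 to 25.6% of this 3′ UTR in K562 and 18.9 to 23.1% in HEK293T. In the 3′ UTR of DDX6, 14 stretches of 1 to 128 bases (882 bases in all) lay in enriched peaks of all K562 replicates. Of these, 10 overlapped enriched peaks of both HEK293T replicates, in some cases over only part of the stretch. At the centre of site 1 the enriched peaks had log2 folds of 6.79, 5.68 and 6.38 in K562 and of 6.26 and 6.85 in HEK293T.

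DCP2, the decapping enzyme, came next among the 9 genes. It had 12, 15 and 5 enriched peaks in K562 and 9 and 8 in HEK293T, all but 2 of them along its 3′ UTR of 8711 nt. In place of the clustered pattern at DDX6, they covered 2.19 to 10.1% of the 3′ UTR in K562 and only 1 stretch of 57 bases was shared by all K562 replicates. The window printed above lies in that stretch, 2764 to 2793 nt after the stop codon, with log2 folds of 3.80, 3.61 and 3.47 in K562 and 3.78 and 3.86 in HEK293T, from 30, 64, 37, 46 and 52 reads.

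DCP1A, the activating partner of DCP2, had 2, 2 and 1 enriched peaks in K562 and 3 and 5 in HEK293T. A single stretch of 53 bases was enriched in all K562 replicates and in both HEK293T replicates, with log2 folds of 4.79, 3.55, 3.58, 4.34 and 4.38. The reads behind it were 12, 34, 12, 27 and 61, and the CC of K562 replicate 1 held 0 reads there. The DCP1A site thus recurred in every pool on few reads.

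LSM14A, an RNA-binding partner of DDX6, had 6, 7 and 0 enriched peaks in K562 and 2 and 5 in HEK293T. PATL1, which bridges DDX6 to the decapping complex, had 0, 2 and 2 in K562 and 1 in each HEK293T replicate. Neither had a site enriched in every pool. XRN1, the 5′ to 3′ exonuclease, had 0 in each K562 replicate and 1 and 2 in HEK293T, while EIF4ENIF1, which binds the cap-binding protein eIF4E, had 1 enriched peak of 5 reads in HEK293T replicate 1.

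**Figure D1:**
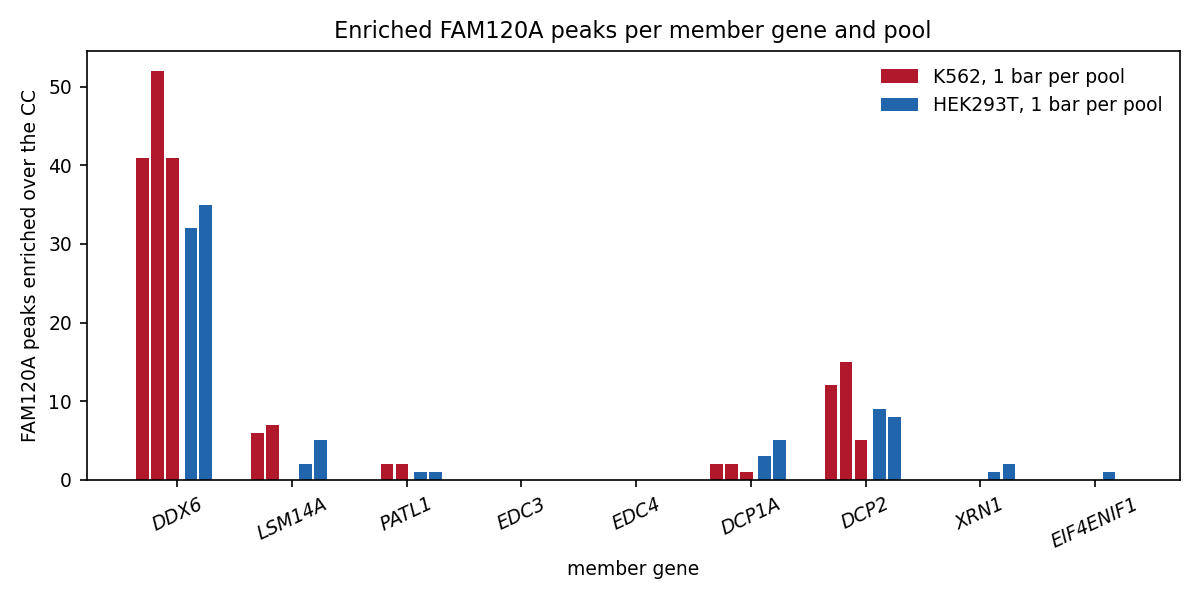
FAM120A peaks enriched over the CC (vertical axis, count) at each member gene (horizontal axis), 1 bar per pool and coloured by line. DDX6 stands at 32 to 52 in all 5 pools, DCP2 at 5 to 15, the other genes at 7 or fewer, and EDC3 and EDC4 at 0 throughout.

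Summed over the 8 genes other than DDX6, enriched FAM120A peaks numbered 20, 26 and 8 in the K562 replicates (mean 18 ± 9.17, SD, n = 3) and 17 and 21 in the HEK293T replicates (19 ± 2.83, SD, n = 2). K562 replicate 3, with the low count, had the smallest FAM120A library, but only by little (823520 peak reads beside 938977 in replicate 1). LSM14A had no enriched peak there. It was also the pool whose folds over the CC were deposited, while CC reads of the other pools were solved from a statistic. Its IGF2BP2 library made up 0.170 of the pool, against 0.0853 and 0.0797 in replicates 1 and 2. What the low count follows was not tested. In K562, 3 of the 8 members with a FAM120A peak in every replicate (DDX6, DCP1A and DCP2) were enriched in every replicate, against 20.6% of the genes with such peaks. DDX6 is in this count, and in the counts that follow, by choice. In HEK293T these were 6 of 9 (DDX6, LSM14A, PATL1, DCP1A, DCP2 and XRN1) against 27.2%. With any replicate counted, 5 of the 9 genes were enriched in K562 and 7 in HEK293T, against 28.7% and 33% of genes with a FAM120A peak.

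The enrichment was also smaller at the partners. In the K562 replicates the median log2 fold of enriched peaks was 5.32, 5.14 and 5.24 at DDX6 and 3.48, 3.30 and 3.45 over the 8 other genes, beside 4.21, 3.99 and 3.80 over all enriched FAM120A peaks. In HEK293T it was 5.27 and 5.75 at DDX6, 3.84 and 3.94 at the others and 4.17 and 4.11 over all. The partners' median lay below that of all enriched peaks in every pool, and that of DDX6 above it. The share of the 8 genes' enriched peaks in the 3′ UTR was 97.8% ± 3.00 (SD over 5 pools, 92 peaks), beside 93.5 to 95.1% of all enriched FAM120A peaks.

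**Figure D2:**
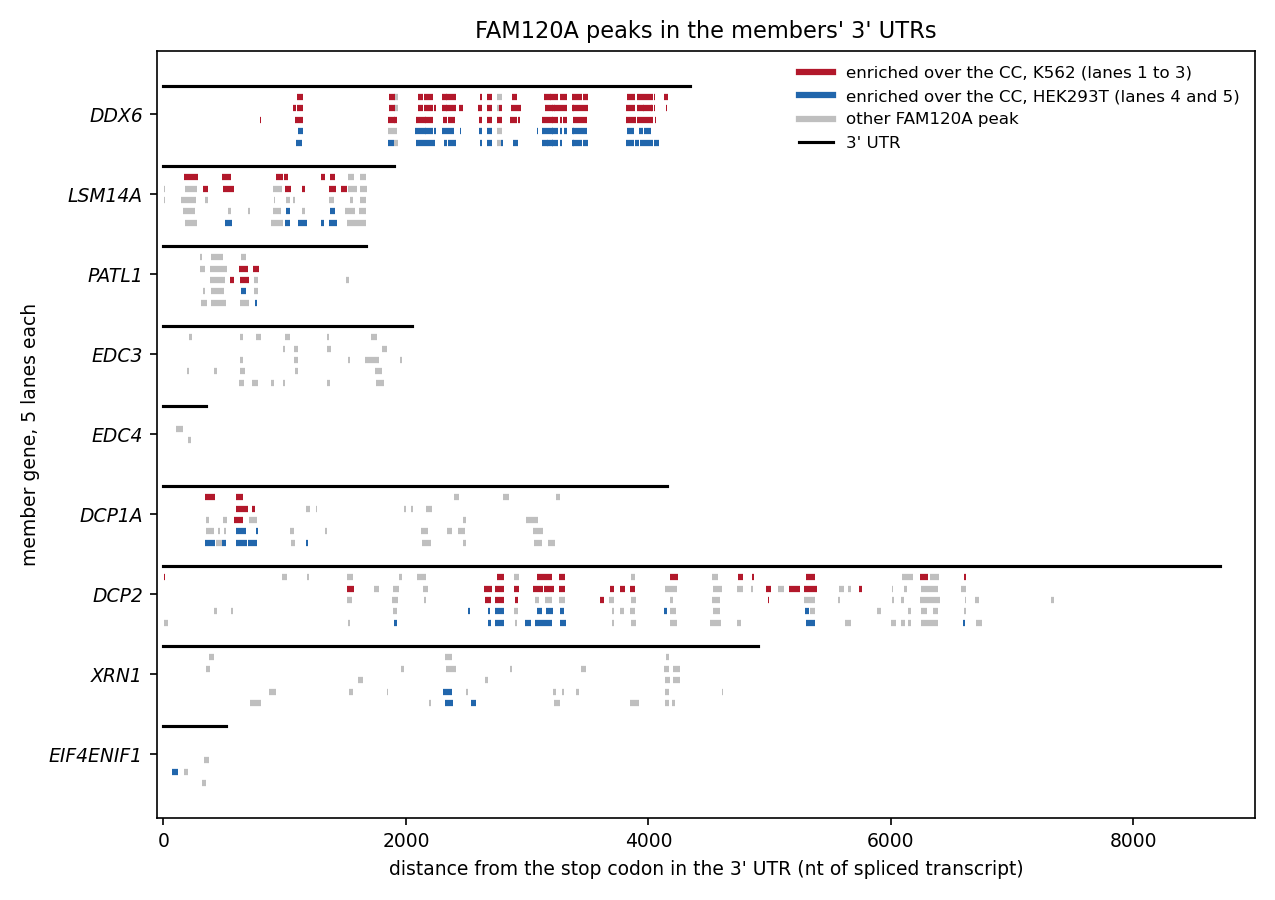
FAM120A peaks along the 3′ UTR of each member gene, with distance from the stop codon in spliced nucleotides on the horizontal axis and 5 lanes per gene, 1 per pool. Enriched peaks of DDX6 fill many of the same stretches in all lanes from nucleotide 793 at the earliest, while those of DCP2 are scattered over a longer 3′ UTR and EDC3 and EDC4 show no enriched peak.

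The level of a gene in a library was the number of reads in its merged peaks, as RPM of the peak reads of that library. At DDX6, FAM120A stood at 49820, 55188 and 39845 RPM in K562 and 17014 and 16306 RPM in HEK293T. By this measure DDX6 was the second, second and first gene of the K562 libraries and the third in both HEK293T libraries. DCP2 stood at 721, 806 and 758 RPM in K562, places 267, 222 and 288 among 9643 to 11799 genes with a FAM120A peak, and at 242 and 201 RPM in HEK293T.

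LSM14A had 189, 278 and 151 RPM in K562 and 132 and 192 in HEK293T, and PATL1 had 144, 134 and 170 in K562 and 135 and 111 in HEK293T. DCP1A had 51.1, 32.6 and 51.0 RPM in K562 and 79.8 and 83.6 in HEK293T. XRN1 had 18.1, 30.0 and 32.8 RPM in K562 and 49.6 and 35.5 in HEK293T. At DCP1A and XRN1 both HEK293T values lay above all K562 values, as they did, by little, at EIF4ENIF1.

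EDC3, a scaffold that joins DDX6 to DCP2, had 30.9, 18.9 and 35.2 RPM in K562 and 22.5 and 21.9 in HEK293T. EDC4, the large scaffold that brings DCP1A and DCP2 together, had 18.1, 10.3 and 12.1 RPM in K562 and 6.76 and 12.2 in HEK293T. EIF4ENIF1 had 3.20, 0 and 12.1 RPM in K562 and 13.1 and 12.7 in HEK293T. EIF4ENIF1 had no FAM120A peak in K562 replicate 2, and the lines overlapped at EDC3 and EDC4.

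Per kilobase of 3′ UTR, which accounts for its length but not for the abundance of each RNA, DDX6 had 11100 ± 1790 RPM in K562 (SD, n = 3). RNA abundance was not measured here, so denser binding and more RNA cannot be told apart between genes. LSM14A (104 ± 33.9), PATL1 (89.1 ± 11.2) and DCP2 (78.8 ± 8.41) followed, and their ranges over replicates overlapped or touched, so their order did not exceed the spread. EDC3 (10.7 ± 4.42), DCP1A (9.31 ± 1.96), EDC4 (7.06 ± 6.92), XRN1 (4.31 ± 1.33) and EIF4ENIF1 (2.37 ± 4.10) formed a lower group whose neighbours also overlapped. In HEK293T, DDX6 had 3840 ± 115 (SD, n = 2), LSM14A 80.8 ± 25.7, PATL1 73.4 ± 10.1, DCP2 22.4 ± 2.37 and DCP1A 18.5 ± 0.625, and the other genes were at 6.78 or lower. DDX6 exceeded the next gene 123-, 89.8- and 90.4-fold in the K562 pools and 48.7- and 37.9-fold in the HEK293T pools.

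**Figure D3:**
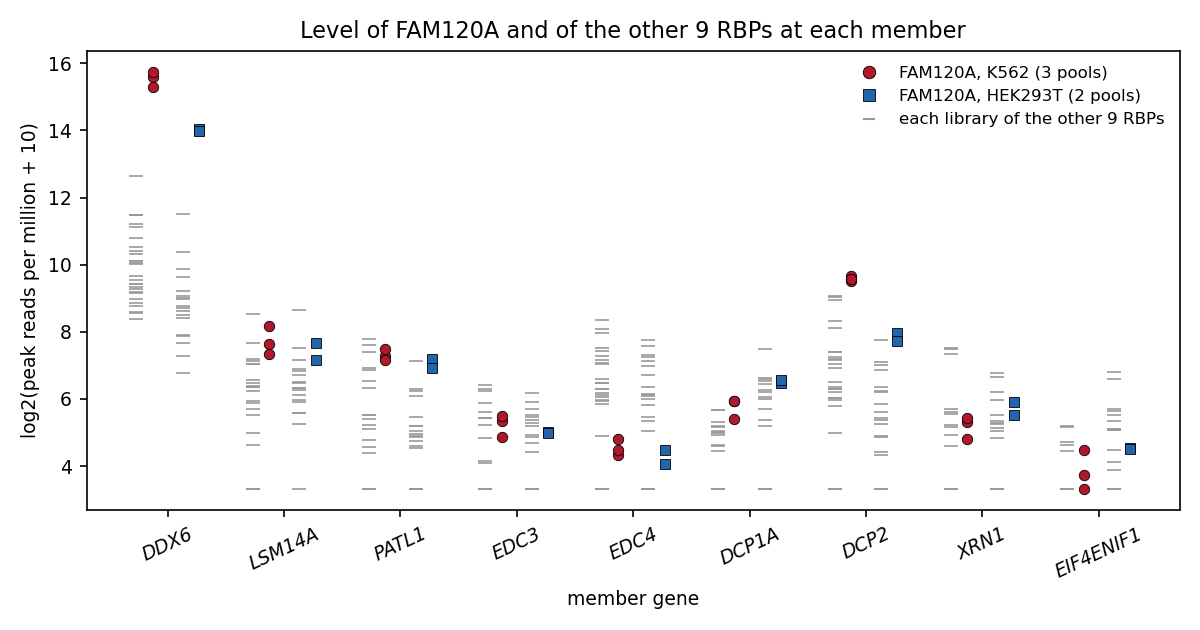
Levels on the log2(RPM + 10) scale (vertical axis) at each member gene (horizontal axis), with FAM120A libraries as points (K562, circles; HEK293T, squares) and each library of the other 9 RBPs as a grey dash. The FAM120A points stand far above all other libraries at DDX6, and above them at DCP2 in K562. They lie within the range of the other libraries at EDC3, EDC4, XRN1 and EIF4ENIF1, and some of them do at PATL1, LSM14A and DCP1A.

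FAM120A gave 96.3 to 98.0% of all peak reads of its pools at DDX6 in K562 and 96.1 to 96.9% in HEK293T. Over all genes it gave 26.8 to 45.9% and 29.2 to 32.3%. Its share at DCP2 was 58.3 to 81.7% and 61.9 to 63.8%, at PATL1 47.1 to 62.7% and 57.5 to 59.0%, and at DCP1A 51.9 to 63.3% and 36.9 to 38.6%. At LSM14A it was 43.4 to 77.7% and 34.5 to 49.9%. At each of these genes the share exceeded that over all genes of the same pool in all 5 pools, whereas EDC4, at 3.26 to 8.66% and 3.96 to 5.75%, lay below it in all 5. EDC4 has a 3′ UTR of 351 nt, beside 4342 nt at DDX6 and 8711 nt at DCP2. Shares over a whole gene do not account for this length. The shares follow the sizes of the libraries as well as the binding.

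To set FAM120A against the other RBPs per gene, the mean log2(RPM + 10) of FAM120A was compared with that of the other 9 RBPs by exchanging RBP labels within each pool (exact one-sided permutation test, 1000 choices, smallest p 0.001, Benjamini-Hochberg adjustment over 8651 genes). In K562, FAM120A was called higher at 22.2% of all genes tested. Of the 7 partners tested it was called at 4, namely DCP2, PATL1, LSM14A and DCP1A, and EIF4ENIF1 had too few reads to be tested. The median difference over all genes was 0.28.

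At DCP2 the difference was 3.26 on the log2 scale (adjusted p = 0.00741, exact permutation), with FAM120A the highest library of the pool in all 3 K562 replicates. IGF2BP2, a 3′ UTR-binding RBP that stabilises mRNAs, came next there, at 515, 522 and 487 RPM. When any level below 3 reads was set to 3 reads in every library, a setting chosen after seeing the data because small libraries stand at 0, DCP2 was still called (adjusted p = 0.0208, exact permutation). The share of all genes called with this floor was not counted.

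The other 3 calls were lost with that setting. PATL1 differed by 2.50 (adjusted p = 0.0456 by exact permutation, 0.299 with the floor), LSM14A by 2.32 (0.0219 and 0.150) and DCP1A by 1.67 (0.00741 and 1). At PATL1 the level of FAM120A was 0.631 to 0.923 times that of IGF2BP2 in the same K562 pools, so it was not the highest RBP there. With limma and the pool as a replicate block, where 19.8% of all genes were called higher and 2.01% lower, DCP2, DCP1A and PATL1 were called (adjusted p = 0.0134, 0.0418 and 0.0469) and LSM14A was not (0.0831).

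EDC3 (difference 1.06, adjusted p = 0.241, exact permutation), XRN1 (0.90, 0.459) and EDC4 (-1.42, 0.998) were not called. FAM120A lay below the mean of the other RBPs at EDC4 in all 5 pools, with differences of -1.10, -1.52, -1.63, -1.96 and -1.69, although a one-sided test does not address this and limma did not call it (adjusted p = 0.382 in K562). These values are of the whole gene and are not scaled to its 3′ UTR of 351 nt. DDX6, given as a description, differed by 5.64 in K562.

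In HEK293T the same test had 100 choices and a smallest p of 0.01. Of 11715 genes, 1689 stood at this p, too few for it to pass the adjustment. The smallest adjusted p was 0.0694 and 0% of all genes were called, so no member was, although 2343 genes had an unadjusted p below 0.05. DDX6 (difference 5.24), DCP2 (2.28) and PATL1 (2.13) stood at the smallest p that the choices allow. With limma and the replicate block, where 10.4% of all genes were called higher, DDX6 was called (adjusted p = 7.914e-06) and DCP2 (0.104) and PATL1 (0.130) were not. DDX6 is in the list by choice, and the recovery of reads in these pools was revised with its values known. Its call is therefore no independent support.

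Levels of FAM120A in K562 and HEK293T were then compared with limma on log2(RPM + 10). RNA abundance in the lines was not measured here, so that more binding and more RNA of a gene cannot be told apart. Of 8158 genes tested, 18% were called higher in K562 and 27.1% lower, and the median difference was -0.19. DCP2 was called higher in K562 by 1.74 ± 0.187 (SE, adjusted p = 0.000954 by limma), and its K562 values of 721 to 806 RPM did not overlap its HEK293T values of 201 and 242 RPM. DCP1A was at -0.76 ± 0.247 (adjusted p = 0.0509 by limma) and XRN1 at -0.52 ± 0.285 (0.186). LSM14A, PATL1, EDC3 and EDC4 lay between 0.22 and 0.31 and were not called. DDX6, as a description, lay 1.52 higher in K562. With 5 libraries an exact two-sided permutation test cannot go below 0.1, which was its p for DCP2 and for DCP1A.

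The difference between FAM120A and the other 9 RBPs, taken within each pool, was compared in the same way. Here 4.17% of 12988 genes were called higher in K562 and 4.04% lower, with a median of 0.15. LSM14A was the member called, higher in K562 by 1.22 ± 0.208 (SE, adjusted p = 0.0276 by limma). Its within-pool differences were 2.37, 2.31 and 2.29 in K562 and 0.99 and 1.22 in HEK293T, which did not overlap. With levels below 3 reads set to 3 reads the difference was 0.46 (adjusted p = 0.338 by limma) and was not called. DCP2 was at 0.97 ± 0.350 (adjusted p = 0.157 by limma), so its higher FAM120A level in K562 was not called as a difference relative to the other RBPs.

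**Figure D4:**
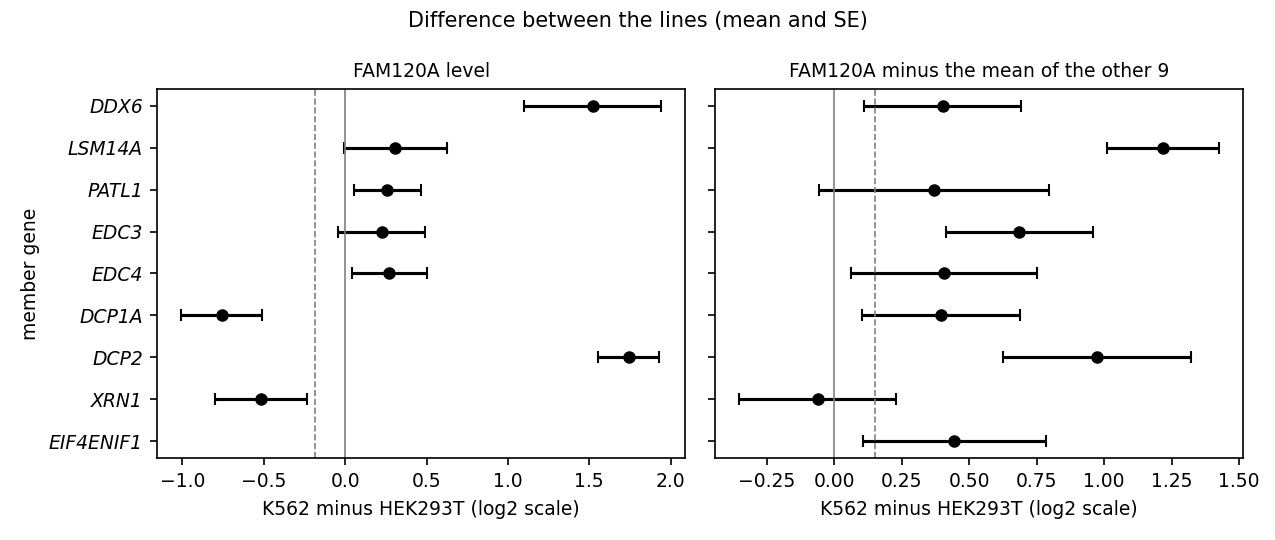
Differences between K562 and HEK293T (horizontal axis, log2 scale; points, mean; bars, SE) for each member gene, for the level of FAM120A and for FAM120A minus the other 9 RBPs of the pool. The dashed line is the median over all genes tested, and EIF4ENIF1 was not tested for its level. DCP2 stands to the right in the level (1.74), LSM14A in the within-pool difference (1.22), and DCP1A to the left in the level (-0.76).

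The other RBPs bound the 9 genes in different regions. PRPF8, a core protein of the spliceosome, had 100 enriched peaks there, 86 of them touching coding sequence and 12 others in introns or at splice sites. A peak touching coding sequence at any base was counted as coding, so peaks across an exon end are among the 86. It was enriched in all 5 pools at DDX6, PATL1, EDC3, EDC4 and XRN1. These were 5 of the 9 members in every K562 replicate and 6 of 9 in every HEK293T replicate, where EIF4ENIF1 was added, against 36.7% and 42.2% of genes with a PRPF8 peak. In K562 PRPF8 was called above the other RBPs at XRN1 (difference 3.42, adjusted p = 0.007445, exact permutation) and EDC3 (1.67, 0.0431), where 31.3% of all genes were called, and at neither with the floor of 3 reads (0.119 and 0.787). At XRN1, PRPF8 stood at 151, 169 and 175 RPM in the K562 replicates, well above FAM120A.

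SF3B4, a subunit of the splicing factor SF3b, had 34 enriched peaks across all 9 genes, 23 in introns or at splice sites, and was enriched in both HEK293T replicates at 4 of the 8 members with a peak in both, against 36.4% of such genes. LIN28B, an RBP that blocks let-7 maturation and binds coding sequence, had 22 at 8 genes, 15 of them in coding sequence, and was enriched in every K562 replicate at LSM14A alone, against 40.4% of such genes. IGF2BP2 had 17 at 7 genes, 10 in the 3′ UTR. It was enriched in both HEK293T replicates at EDC3 (7.63% of such genes), and in the level test in K562 was called at PATL1 (difference 2.82, adjusted p = 0.0265, exact permutation), where 4.96% of genes were called, but not with the floor (0.203). DDX3, a helicase of translation initiation, was enriched at DCP2 in 4 pools, all K562 replicates among them (16.8% of such genes). EIF3G, a subunit of initiation factor eIF3, and RBFOX2, a splicing regulator, were each enriched at DDX6 in 4 pools, again with all K562 replicates (15.9% and 11.9% of such genes). EIF3G was also enriched at EDC4 in both HEK293T replicates (14.3%). The single-antibody RBFOX2 libraries, read against an external background in place of a CC, had enriched peaks in both replicates at EDC4, DCP1A and LSM14A, as did 39.1% of genes with a peak in both.

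PUM2, a repressor of translation that binds 3′ UTRs, had 6 enriched peaks, at DCP2 and LSM14A alone. PUM2 libraries held 2846, 6378 and 2240 RPM at DDX6 in K562, the next highest after FAM120A, from 38, 124 and 38 reads and with no enriched peak. The CC of a PUM2 peak includes the FAM120A reads of the pool. Within FAM120A sites the lack of an enriched PUM2 peak therefore does not show a lack of binding. Reads of the other RBPs at DDX6 lay largely within the FAM120A-enriched sites: the share was 41.6 to 97.7% (median 84.1%, 27 libraries) in K562 and 39.4 to 87.3% (median 67.3%, 18 libraries) in HEK293T. The part that reads passing between barcodes of a pool may have in this was not tested.

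EDC4, which FAM120A did not mark, had a recurrent site of ZC3H11A, a zinc finger protein of mRNA export, singled out after its values were seen. Its window is shown because it was enriched in all 5 pools, and the capitals mark bases within the enriched peaks of all 5.
EDC4 (ZC3H11A), chr16:67884342-67884371, plus strand: gGTATTGCGCCTGCTTGGGTTCTGCCATGC
The log2 folds were 5.92, 5.99 and 5.29 in K562, from 6, 24 and 14 reads, and 5.10 and 5.43 in HEK293T, from 12 and 16 reads. It lies 194 to 223 nt after the stop codon, in sequence shared with a long noncoding RNA annotated on the same strand, from which its reads cannot be told apart. ZC3H11A peaks were enriched in every replicate at 7.52% of genes with such peaks in K562 and 9.78% in HEK293T. EDC4 was the member enriched for ZC3H11A in every replicate of both lines.

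**Figure D5:**
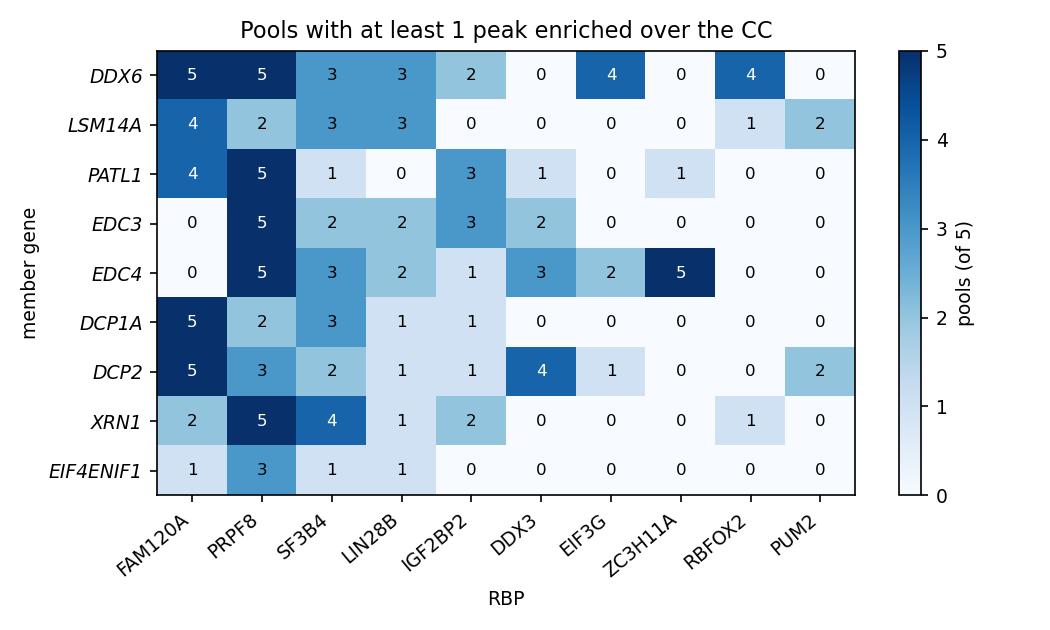
Number of pools, of 5, in which each RBP (horizontal axis) had at least 1 enriched peak at each member gene (vertical axis). FAM120A reaches 5 at DDX6, DCP1A and DCP2 and 0 at EDC3 and EDC4, PRPF8 reaches 5 at DDX6, PATL1, EDC3, EDC4 and XRN1, and ZC3H11A reaches 5 at EDC4.

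A wider list of 38 genes of deadenylation, decapping and P-bodies placed the 9 genes in their pathway. In K562, 33 could be tested for FAM120A and 9 were called (27.3%, beside 22.2% of all genes), with a median difference of 0.52 beside 0.28. With the floor of 3 reads 4 were called, but the share of all genes called with it was not counted. These 4 were CNOT6L and CNOT7, catalytic deadenylases of the CCR4-NOT complex, LSM14B, the paralogue of LSM14A, and PNRC2, which links decapping to nonsense-mediated decay. Their FAM120A levels were 273, 410 and 205 RPM at CNOT6L, 230, 314 and 271 at CNOT7, 469, 437 and 313 at LSM14B, and 399, 485 and 342 at PNRC2. All 4 exceeded the levels of LSM14A and PATL1 in every K562 replicate, and all lay far below DDX6. The other calls were PNRC1, LSM5, TNRC6B, MEX3A and CNOT9, with differences of 2.01 to 3.14.

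Across the 30 K562 libraries, the log2(RPM + 10) profile of DDX6 was most like those of the long noncoding RNAs ENSG00000272335, ENSG00000230896, ENSG00000278133 and ENSG00000260912 and of POC1B-GALNT4, with Pearson r of 0.862 to 0.864. These genes had FAM120A levels of 19.4 to 78.5 RPM, and likeness here means reads in FAM120A libraries and few elsewhere. Among the members r was 0.32 for DCP2, 0.26 for LSM14A, 0.24 for PATL1, 0.21 for DCP1A, 0.06 for EDC3, -0.07 for XRN1 and -0.48 for EDC4. The points share pools and library depths, and these values are descriptive.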

How the data were processed

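Libraries were made and processed by the authors: adapters were trimmed with cutadapt 2.8, reads were aligned to GRCh38 with STAR 2.7.6 per the submitters' processing notes, and peaks were called per library with CLIPper. Deposited CLIPper peak lists give a p-value per peak. Deposited merged peaks give −log10 P, cut at 400, and a log2 fold over an external background. For the CC comparison the authors deposited −log10 P and a log2 fold in K562 replicate 3, and text with a chi-squared statistic in the other pools, where peaks in repeats were not listed. Reads per peak were taken from the peak names where the lists give them and otherwise recovered here from the pairs of fold and P. CC reads were solved from the deposited fold in K562 replicate 3 and from the chi-squared statistic in the other pools. Peak reads of the other 9 libraries of the pool mainly served to choose between the lower and the higher solution. The solution was a whole number for 77.4 to 99.4% of peaks by library, and approximate CC reads were used for the rest. The recovery rules were revised after looking at values, DDX6 included, with earlier counts known, so the DDX6 counts are no independent support. Of 11218 peaks whose P was too small to be given, 2216 were raised to a higher multiple, which was not possible in repeats. The FAM120A libraries of HEK293T held 7309 of the 11218 and 1131 of the 2216. The step from chi-squared statistic to CC reads was tested on data simulated from the known reads of K562 replicate 3. There, FAM120A enriched peaks were recovered at 100.0%, with 4.01% false calls, and at most 10.5% for another RBP. Recovery of reads from fold and P, used for K562 replicate 2 and the HEK293T pools, was not simulated, nor was the raising of multiples.

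Genes were assigned by overlap on their strand and regions with GENCODE v44. A peak touching several regions was given the first of coding sequence, 3′ UTR, 5′ UTR, splice site and intron. Genes needed 100 reads over the libraries of a line. Tests were run on log2(RPM + 10) with exact permutation (scipy 1.17.1) and limma 3.58.1, threshold adjusted p 0.05. Fold changes on this scale understate changes of low genes. P-values between the lines measure the spread between these pools. Those of an RBP against the other RBPs of its pools depend on the spread between RBPs as well. At DCP2 in K562 the limma SE for FAM120A was 1.001, while its differences by pool were 3.59, 2.82 and 3.36. Labels follow titles. HEK293T replicate numbers come from accession order and pair nothing with K562, whereas the 10 libraries of a pool share a lysate, which is the block used. The members and gene lists were chosen with earlier results of these data known. All members were named, and sequences were those of the highest mean fold, with starts of sites more than 100 bases apart, or of the bases enriched in most pools. Alternatives were stricter and looser limits, the external background, pseudocounts of 1 and 50, filters, exonic peaks, merged runs, left-out replicates and, chosen after seeing the data, a floor of 3 reads.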

Additional observations from a re-analysis of the deposited data

Results flagged for a closer look

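LSM14A differed between the lines in FAM120A minus the mean of the other 9 RBPs, by 1.218 (K562 minus HEK293T, log2 scale, SE 0.2083, adjusted p = 0.02759 by limma), a test of the difference itself. The call was lost with levels set to at least 3 reads (0.46, adjusted p = 0.338), with pseudocounts of 1 and 50 (adjusted p = 0.0531 and 0.0574) and without each K562 replicate (adjusted p = 0.0583 to 0.0760), all by limma.

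The single-antibody libraries enter none of the comparisons between RBPs or lines. They have no CC, so their peaks were read against the external background at P below 0.001 and a fold above 8, and no control library for them was used here. RBFOX2 in HEK293T had 6 such peaks at EDC4 (3 and 3 in the replicates), 5 at DCP1A (2 and 3), 4 at LSM14A (2 and 2), 1 at DDX6 (0 and 1) and 1 at XRN1 (1 and 0). Of genes with an RBFOX2 peak in both replicates, 39.1% had an enriched one in both, so the 3 members are read beside that share. SLBP in K562 had 2 at DCP2 (0 and 2).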

How the results depend on the processing

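Counts of enriched FAM120A peaks depended on the limits and the control. The mean over the 8 genes other than DDX6 in K562, 18, became 2 at P below 1e-05 and a fold above 16, 38.3 at any fold, and 47.3 over the external background, and it was 14 to 23 with each replicate left out. In HEK293T it went from 19 to 7 with the stricter limits and 65 over the external background, and from 17 to 21 with a replicate left out. The 3′ UTR share of 97.8% was 100% with the stricter limits (20 peaks) and 96.97 to 98.67% with a pool left out.

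Of the 4 partners called for FAM120A in K562, 1 (DCP2) was called with levels set to at least 3 reads, and 0 with any replicate left out, where the smallest p is 0.01. By limma 3 were called with the replicate block and 3 without it. PATL1 was lost with exonic peaks alone, with merged runs and with no filter on low genes. In HEK293T the count went from 0 to 1 by limma with the replicate block, the 1 being DDX6, which is in the list by choice.

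Between the lines, the FAM120A level was called at 1 member (DCP2), at 2 with a pseudocount of 50 (DCP1A too), at 0 by exact permutation, and at 1 with the replicate block or with any replicate left out. The within-pool difference was called at 1 (LSM14A), at 0 with a pseudocount of 1 or with 3 reads as the floor, and at 1 with a pseudocount of 50, where the gene was DCP2 and not LSM14A. It was 0 to 1 with a replicate left out, and 0 without each K562 replicate. No difference that was called, in the main or in the changed setting, changed sign. Changes of sign among uncalled differences were not counted. Causes of these changes were not tested. FAM120A peaks at EDC3, EDC4, XRN1 and EIF4ENIF1 held few reads, so that a few reads decide a peak there. In the small libraries of PUM2, EIF3G and ZC3H11A, 3 reads already equal a high level.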
